A study of Mus musculus with 20 samples.

Results

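Gdf15, the gene beside it on chromosome 8 (Pgpep1) and 6 genes of the p53 and cellular stress pathways were followed in 20 mouse livers. The 8 genes were taken by name from the array files, and all non-control probes that carry these names were used, which gave 10 of the 55681 probes and 8 of the 21998 genes tested. Gdf15 and Pgpep1 were selected on their measured log2 difference between estradiol (E2, the main circulating estrogen) and placebo in wild-type livers, so their values in that comparison, and in the comparisons built on the same arrays, are a description with no test. Cdkn1a, Mdm2 and Ccng1 stand for the p53 pathway and Ddit3, Trib3 and Chac1 for the stress pathway. The question put to the data was whether Gdf15 and Pgpep1 moved together with either set.

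All animals had their ovaries removed at 4 weeks of age and received castor oil with 5% ethanol by gavage at 9 weeks, either alone (placebo) or with E2 at 1 mg/kg. Livers were taken 4 hours later under ketamine and xylazine, which every group received. Wild types (ERa+/+) and nulls (ERa-/-, without functional estrogen receptor alpha) came from the same parents, and each of the 4 groups of genotype and treatment held 5 animals with 1 array each. The labels give neither the strain nor the part of the receptor gene that was deleted. Levels are log2 intensities relative to the 75th percentile of each array, so they rank a gene between animals and not 1 gene against another. Differences come from limma with Benjamini-Hochberg adjustment over all genes and a threshold of 0.05, SE is the standard error from that fit, and SD is over 5 animals.

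Gdf15 (growth differentiation factor 15) is a secreted cytokine of the TGF-beta superfamily that acts on its receptor GFRAL in the hindbrain to lower food intake. Liver is among the tissues that release it when cells are injured or their protein synthesis is disturbed, and it is a known target of p53 and of ATF4 and CHOP, the transcription factors of the integrated stress response. Pgpep1 encodes pyroglutamyl-peptidase I, a cytosolic enzyme that removes a pyroglutamyl residue from the amino terminus of peptides. Cdkn1a encodes the cell cycle inhibitor p21, Mdm2 the ubiquitin ligase that degrades p53, and Ccng1 cyclin G1, and all are textbook p53 targets. Ddit3 encodes CHOP itself, Trib3 a pseudokinase induced by ATF4 and CHOP, and Chac1 an enzyme that degrades glutathione.

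The upstream windows of these genes are shown because they carry the letters by which estrogen receptors, p53 and the stress factors are recognised. All 8 genes had a window of 250 bases before an annotated start in RefSeq (GRCm38.p6), 10 windows in all with a second one for Gdf15 and for Cdkn1a. Both strands were searched for the palindromic estrogen response element, its extended half-site (AGGTCA, whose last letters form an arm of the full element), the AP-1 site (TGANTCA), the composite C/EBP-ATF element (TGATGNAA) and the p53 half-site. Capitals mark matches, and each window runs 5′ to 3′ on the strand of its gene.
Gdf15, chr8:70632457-70632706, minus strand, estrogen response half-site in capitals: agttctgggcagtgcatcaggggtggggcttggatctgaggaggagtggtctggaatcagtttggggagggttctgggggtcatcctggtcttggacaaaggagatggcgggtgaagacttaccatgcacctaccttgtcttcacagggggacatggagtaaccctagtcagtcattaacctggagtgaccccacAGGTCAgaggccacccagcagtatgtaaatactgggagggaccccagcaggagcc
Pgpep1, chr8:70659739-70659988, minus strand, no match: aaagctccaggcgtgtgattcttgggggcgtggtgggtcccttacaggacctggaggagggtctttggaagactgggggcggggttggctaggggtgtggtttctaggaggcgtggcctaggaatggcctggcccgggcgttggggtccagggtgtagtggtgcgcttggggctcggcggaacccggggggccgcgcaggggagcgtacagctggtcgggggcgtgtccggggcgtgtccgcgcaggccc
Cdkn1a, chr17:29090729-29090978, plus strand, p53 half-sites in capitals: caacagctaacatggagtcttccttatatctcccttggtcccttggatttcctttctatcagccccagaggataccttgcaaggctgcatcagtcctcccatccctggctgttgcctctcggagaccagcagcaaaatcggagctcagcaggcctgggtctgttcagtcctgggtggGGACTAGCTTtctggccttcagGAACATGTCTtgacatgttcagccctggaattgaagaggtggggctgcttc
Ccng1, chr11:40755287-40755536, minus strand, p53 half-site in capitals: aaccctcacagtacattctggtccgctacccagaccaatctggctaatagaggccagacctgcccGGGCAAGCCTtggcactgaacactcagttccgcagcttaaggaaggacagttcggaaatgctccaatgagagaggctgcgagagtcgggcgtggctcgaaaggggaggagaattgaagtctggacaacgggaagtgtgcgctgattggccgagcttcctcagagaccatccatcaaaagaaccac
Chac1, chr2:119350992-119351241, plus strand, C/EBP-ATF element on the opposite strand in capitals: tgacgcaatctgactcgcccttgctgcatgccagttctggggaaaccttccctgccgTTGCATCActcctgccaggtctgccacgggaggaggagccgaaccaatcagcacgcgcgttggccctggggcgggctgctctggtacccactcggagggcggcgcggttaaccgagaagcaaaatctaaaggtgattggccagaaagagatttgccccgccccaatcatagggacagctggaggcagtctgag

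The full estrogen response element was in no window of the 8 genes, and 0.0639% of all 32851 RefSeq windows of this length hold it. The AGGTCA match of Gdf15 began 55 bases before the start, and 14% of all windows hold such a match. The Cdkn1a matches began 73 and 51 bases before the start, the Ccng1 match 185 bases before and a further one in Mdm2 (GAACTTGCCT) 186 bases before, against 7.13% of all windows with a p53 half-site. The Chac1 match began 193 bases before the start (3.45% of all windows hold the C/EBP-ATF element), and Ddit3 had an AP-1 match (TGACTCA) 242 bases before it (6.75%). The matches of Gdf15 and Cdkn1a lay in the printed window of each, and their second windows held none of these motifs. Trib3 and Pgpep1 windows held none either, which says only that the letters are not in these 250 bases.

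Before the genes of interest, the arrays were checked. Esr1, which encodes estrogen receptor alpha, was 4.00-fold lower in nulls than in wild types under placebo (log2 -2.0 ± 0.23, SE, n = 5 per group, limma adjusted p = 0.000482) and 4.70-fold lower under E2, with no overlap between genotypes. Its probe still read well above background on all null arrays. All 8 hepatocyte markers were well above background on every array. The arrays lay on 4 slides, and slide is given below as a batch. Spots called above background made up 51.6% to 70.0% of each array, with the highest in wild-type E2 animal 1. Each level is a whole-liver value, in which fewer cells of a type and less RNA per cell cannot be told apart.

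Gdf15 was high in every wild-type liver that received E2 and low in the other 15 livers. Its level with E2 was 6.09, 5.68, 6.05, 5.74 and 5.51 in wild-type animals 1 to 5, against 3.15, 1.13, 1.47, 2.97 and 3.54 with placebo. The lowest E2 animal stood well clear of the highest placebo animal, and the placebo animals themselves spread over a 5.31-fold range, where the E2 animals spread over 1.49-fold. In nulls the levels were 3.04, 2.38, 2.51, 1.55 and 2.08 with placebo and 1.80, 2.41, 1.76, 2.13 and 1.14 with E2, so the null groups overlapped each other and the wild-type placebo group. The mean difference between E2 and placebo in wild types was 10.3-fold (log2 3.36 ± 0.39, SE, 95% confidence interval 2.54 to 4.19), which is the value that led to the choice of this gene and carries no test here. Gdf15 lay within the 70 genes called in that comparison, 0.318% of those tested, and nothing is read from that count for it or for Pgpep1.

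In nulls the difference with E2 was -0.47 ± 0.39 for Gdf15 (limma adjusted p = 0.913), with an interval from -1.29 to 0.36, on the other side of 0 from the wild-type value. In that comparison 1 of the 21998 genes was called (0.00455%). The difference between the E2 effects of the genotypes was 3.83 ± 0.56 and the null level under E2 was 3.97 ± 0.39 below the wild-type level, both with no test. Under placebo the genotypes differed by -0.14 ± 0.39, also with no test, since this comparison shares the wild-type placebo arrays with the one by which the gene was chosen. In order of mean level the groups stood at 5.81 for wild-type E2, 2.45 for wild-type placebo, 2.31 for null placebo and 1.85 for null E2, and only the step below wild-type E2 exceeded the spread within groups. Within slides, the E2 difference in wild types was 4.58 on slide 1, 3.10 on slide 2 and 2.36 on slide 4, and that in nulls was -0.91, -1.06 and 0.32 on slides 1, 2 and 3. Each of these values rests on 1 or 2 animals per group.

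Pgpep1 was also highest in wild-type livers with E2, at a smaller scale and with another order of the other groups. Its level in wild types was 1.60, 1.48, 1.57, 1.95 and 1.79 with placebo and 2.63, 2.59, 2.73, 2.85 and 2.80 with E2, again with a clear gap between the groups. In nulls it was 2.20, 2.08, 1.64, 2.11 and 2.10 with placebo and 2.03, 1.97, 1.97, 1.89 and 1.93 with E2, so the null groups overlapped and both lay between the wild-type groups for the most part. The group means were 2.72 for wild-type E2, 2.03 for null placebo, 1.96 for null E2 and 1.68 for wild-type placebo. The wild-type difference was 2.06-fold (log2 1.04 ± 0.10, SE, interval 0.82 to 1.26, no test). The null difference was -0.07 ± 0.10 (limma adjusted p = 0.965). Null livers under placebo stood 0.35 ± 0.10 above wild-type ones and null livers under E2 stood 0.76 ± 0.10 below them. Neither value carries a test, since a low level in wild types with placebo and a high one with E2 both favoured the choice of this gene. Within slides the wild-type difference was 1.24, 0.73 and 1.20 on slides 1, 2 and 4, each from 1 placebo animal and 1 or 2 with E2.

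**Figure D1:**
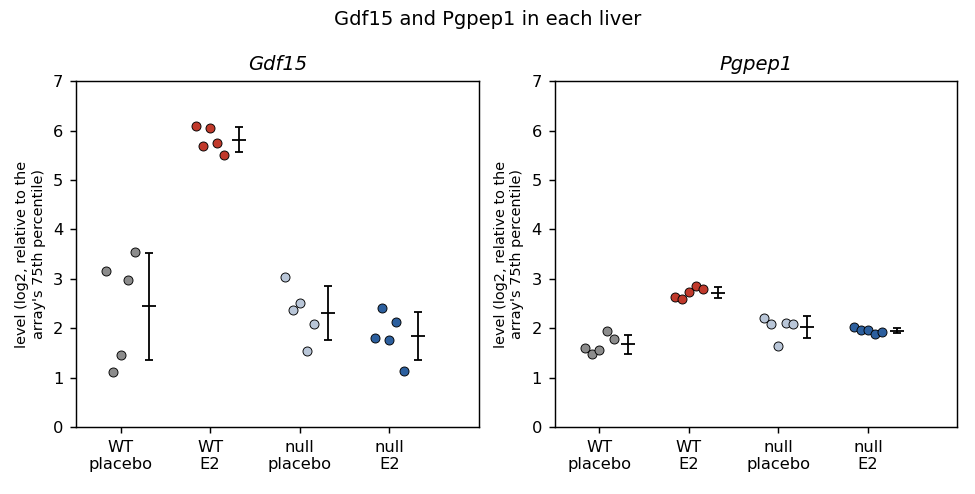
Level of Gdf15 and Pgpep1 in each liver (log2 relative to the 75th percentile of the array, vertical axis) by group, with 1 point per animal and the mean ± SD of 5 animals as a bar to the right. All wild-type E2 points lie above all other points, from 5.51 upward for Gdf15 and from 2.59 upward for Pgpep1.

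Red cell markers also differed between the wild-type groups. The summed level of the 4 erythroid genes tested ran from 7.19 to 7.72 in wild types with placebo and from 7.78 to 8.41 with E2, without overlap, and 0 of these 4 genes were called. Under placebo Alas2, the first enzyme of heme synthesis in red cells, was called higher in nulls than in wild types (log2 0.90 ± 0.12, limma adjusted p = 0.00249). In nulls, where Gdf15 and Pgpep1 did not have the wild-type E2 level, the sum ran from 7.62 to 8.16 with placebo and from 7.66 to 8.24 with E2. Kupffer cell and macrophage markers had E2 differences above 0 in 9 of 9 genes in wild types and 8 of 9 in nulls, with 0 called. Their summed level ran from 5.68 to 6.60 in wild-type placebo and from 5.84 to 7.35 in wild-type E2 livers. Endothelial markers lay above 0 in 6 of 6 genes in wild types and 2 of 6 in nulls, and T and NK cell markers in 3 of 3 and 1 of 3. In wild types hepatocyte (3 of 8), cholangiocyte (3 of 5), stellate (4 of 6) and neutrophil markers (2 of 3) went both ways. None of these was called with E2. With 0.318% of all genes called in wild types and 0.00455% in nulls, 0 called is near the background. The part of these cells in the Gdf15 and Pgpep1 values was not tested.

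The probes of Gdf15 (73153293 to 73153352) and Pgpep1 (73174006 to 73174065) start 20.7 kb apart on chromosome 8 of mm9, the build of the array files, both on the minus strand. Within 250 kb of the Gdf15 probe lay 41 probes of 36 genes, of which 28 could be tested, 26 beside the pair. With E2 in wild types 0 of these 26 were called, where 0.318% of all genes were. An unadjusted limma p under 0.05 was found for 4 of the 26 and for 1821 of all 21998 genes. Differences of 12 lay above 0, with a median of -0.02 beside 0.00 over all genes. The stretch as a whole thus lay near 0. The closest measured gene, Lrrc25, a membrane protein gene of myeloid cells 8.6 kb away, differed by 0.13 ± 0.27 (limma adjusted p = 0.932), and Lsm4, an RNA-processing gene on the far side of Pgpep1, by 0.08 ± 0.09 (limma adjusted p = 0.841).

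Of the 26 genes, 3 were called lower in nulls than in wild types under E2, a comparison in which 0.464% of all genes were called. Isyna1, the enzyme that makes inositol phosphate from glucose 6-phosphate, had its probe 32.2 kb from that of Gdf15 (73121065 to 73121124). Its wild-type levels were 1.53, 2.25, 2.38, 2.18 and 1.71 with placebo and 3.13, 3.07, 2.45, 3.45 and 2.90 with E2, and its null levels ran from 1.01 to 2.11 with placebo and from 1.24 to 1.67 with E2. Every wild-type E2 animal lay above every animal of the other groups. The wild-type difference was 1.99-fold (log2 0.99 ± 0.21) and just missed the threshold (limma adjusted p = 0.0549), and the null level under E2 fell short of the wild-type level by 2.91-fold (log2 -1.54 ± 0.21, limma adjusted p = 0.000571).

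Jund, which encodes an AP-1 subunit, lay 71.1 kb on the other side (73224436 to 73224495). It was 1.82-fold lower in null than in wild-type livers under E2 (log2 -0.87 ± 0.18, limma adjusted p = 0.0346), with wild-type levels from 4.80 to 5.62 and null levels from 4.00 to 4.64. Its E2 difference in wild types was 0.54 ± 0.18 (limma adjusted p = 0.398) and the groups overlapped. The probe of an Ensembl transcript 0.6 kb from it (ENSMUST00000116172) was 1.73-fold lower in nulls under E2 (limma adjusted p = 0.0272). It differed by 0.57 ± 0.16 with E2 in wild types (limma adjusted p = 0.286). Whether this probe and that of Jund read the same transcript was not tested, so their calls may not be separate. For all 26 genes the test of the difference between the E2 effects gave adjusted p-values of 0.455 or more, and none was called with E2 in nulls or between genotypes under placebo.

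**Figure D2:**
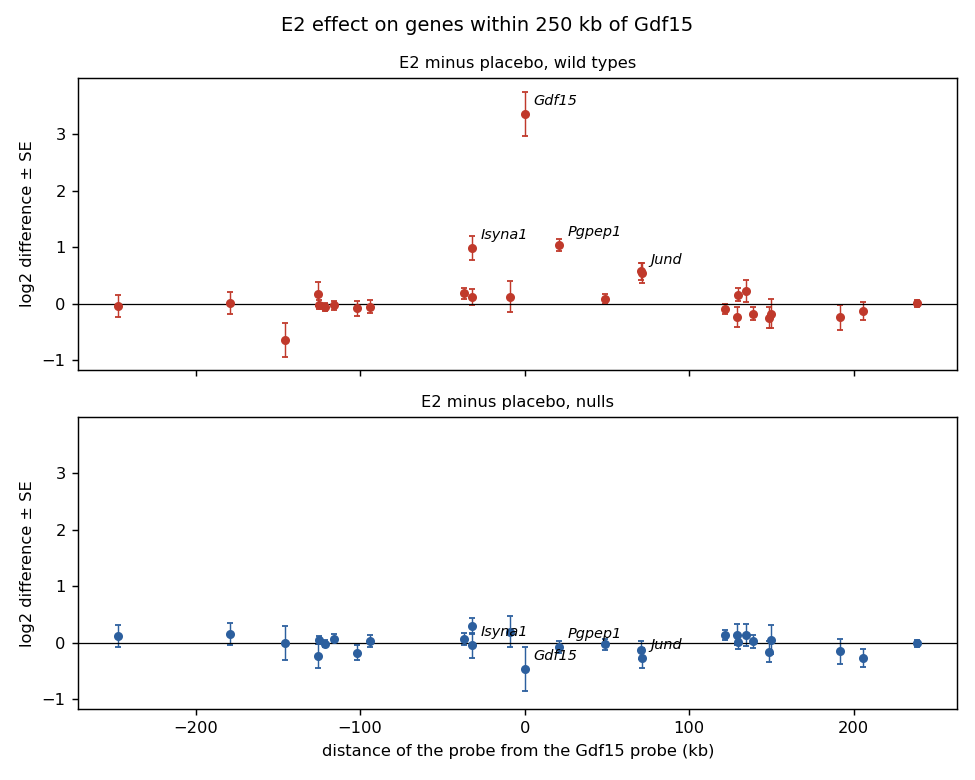
Difference between E2 and placebo (log2 ± SE, vertical axis) for each tested gene within 250 kb, by distance of its probe from the Gdf15 probe (kb, horizontal axis), in wild types (top) and nulls (bottom). Gdf15 at 3.36 and Pgpep1 at 1.04 stand highest in wild types, followed by Isyna1 at 0.99, with most other points near 0 in both panels.

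None of the 6 pathway genes passed the threshold in any of the 5 comparisons, in which 0.318% (E2 in wild types), 0.00455% (E2 in nulls), 0.164% (difference between the E2 effects), 0.0727% (genotypes under placebo) and 0.464% (genotypes under E2) of all genes did. Unadjusted limma p-values under 0.05 were 1, 0, 1, 1 and 1 of 6 in these comparisons. Over all 21998 genes they were 1821, 1333, 1626, 2226 and 2118. Cdkn1a gave each of those among the pathway genes except the one between genotypes under E2, which was Chac1. Beside the called shares 0 of 6 is near the background, and the confidence intervals below say more than the count.

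Cdkn1a had the widest spread of the 8 genes. Its wild-type levels were 2.34, 1.62, -0.41, -1.91 and -2.50 with placebo and 2.81, 2.76, 2.12, 0.68 and 1.81 with E2, and its null levels were 3.34, 0.60, 2.67, 1.42 and 1.17 with placebo and 2.21, -0.49, -0.10, 0.55 and 1.05 with E2. Placebo animals 3, 4 and 5 of the wild types were lower than all E2 animals, and animals 1 and 2 were within the E2 range. The differences were 2.21 ± 0.82 with E2 in wild types (unadjusted p = 0.0144, limma adjusted p = 0.472) and -1.19 ± 0.82 in nulls (limma adjusted p = 0.873), and the difference between them was 3.40 ± 1.16 (unadjusted p = 0.00855, limma adjusted p = 0.573). Under placebo Cdkn1a stood higher in null than in wild-type livers, by 2.01 ± 0.82 (unadjusted p = 0.0239, limma adjusted p = 0.397).

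Spots of the main Cdkn1a probe gave close values within an array. This probe (chromosome 17, 29237377 to 29237436) is printed 10 times on each array, and the SD over these spots was 0.0385 to 0.124 on the log2 scale, which covers spot noise and not labelling or hybridisation. A dimmer probe (29235299 to 29235358), well above background on 2, 4, 5 and 4 of 5 arrays in wild-type placebo, wild-type E2, null placebo and null E2, is given no difference here, and a further probe (29227986 to 29228045) was well above background on no array. At the main probe the E2 difference in wild types was 0.10 on slide 1, 4.38 on slide 2 and -0.54 on slide 4. Each of these slides held 1 wild-type placebo animal, against 2, 2 and 1 with E2. Those on slides 1 and 4 were animals 2 and 1, which had the highest placebo levels. Slide and animal can therefore not be told apart in this change of sign.

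Mdm2 and Ccng1 stayed within narrow ranges in every group. Mdm2 levels ran from 2.94 to 3.20 in wild types with placebo and from 2.76 to 3.13 with E2, and from 3.05 to 3.23 and 2.75 to 3.15 in nulls. Its E2 difference was -0.13 ± 0.09 in wild types (limma adjusted p = 0.714, interval -0.32 to 0.06) and -0.15 ± 0.09 in nulls (limma adjusted p = 0.859). Ccng1 levels ran from 0.90 to 1.29 and 0.86 to 1.15 in wild types and from 1.06 to 1.67 and 0.93 to 1.24 in nulls, placebo first. Its E2 difference was -0.07 ± 0.12 in wild types (limma adjusted p = 0.912, interval -0.31 to 0.18) and -0.08 ± 0.12 in nulls (limma adjusted p = 0.963).

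The stress targets gave small differences of mixed sign with E2. Ddit3 levels in wild types ran from -0.76 to -0.08 with placebo and from -0.94 to -0.57 with E2, a difference of -0.30 ± 0.21 (limma adjusted p = 0.714, interval -0.73 to 0.14). In nulls they ran from -0.92 to 0.13 and from -0.97 to 0.06, a difference of -0.11 ± 0.21. Trib3 levels in wild types ran from 0.41 to 2.0 with placebo, where animal 5 was the highest of all 20 livers, and from 0.76 to 1.46 with E2. Its difference was 0.17 ± 0.25 (limma adjusted p = 0.886, interval -0.35 to 0.70) in wild types and 0.02 ± 0.25 in nulls.

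Chac1 had its largest difference between genotypes under E2. Its levels were 2.37, 3.26, 3.13, 3.04 and 2.09 with placebo and 2.76, 2.78, 3.13, 3.12 and 2.69 with E2 in wild types, and 3.11, 1.82, 2.23, 1.54 and 2.14 with placebo and 0.61, 1.29, 2.29, 1.73 and 2.07 with E2 in nulls. Under E2 every null liver lay below every wild-type liver, and under placebo the genotypes overlapped. How many of all genes separate in this way is not given here, so nothing is read from it. The E2 difference was 0.12 ± 0.31 in wild types (limma adjusted p = 0.943) and -0.57 ± 0.31 in nulls (limma adjusted p = 0.828). Null against wild type was -0.61 ± 0.31 under placebo (limma adjusted p = 0.523) and -1.30 ± 0.31 under E2, 2.46-fold lower, with an unadjusted p of 0.000588 and an adjusted p of 0.0923 in the limma fit. It was lower on all 3 slides that held both groups (-2.34, -0.77 and -1.39), with 1 or 2 animals per genotype on each. This value crossed the threshold under normexp background correction together with quantile scaling (limma adjusted p = 0.0449). It also did so without null placebo animal 1 (limma adjusted p = 0.0472), and its adjusted p reached 0.550 under other alternatives.

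**Figure D3:**
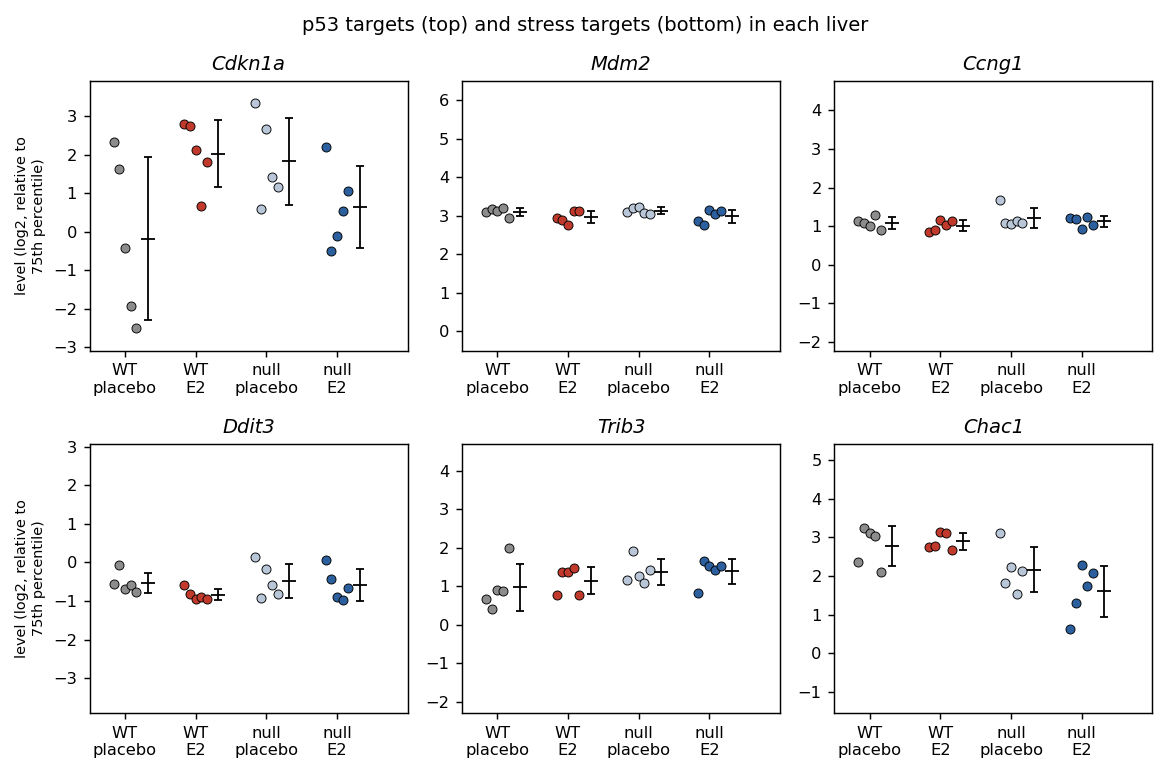
Level of Cdkn1a, Mdm2 and Ccng1 (top) and of Ddit3, Trib3 and Chac1 (bottom) in each liver (log2 relative to the 75th percentile of the array, vertical axes of equal length), with 1 point per animal and mean ± SD of 5 animals. Mdm2 and Ccng1 are nearly level, Cdkn1a spreads from -2.50 to 3.34, and null E2 points of Chac1 lie below its wild-type E2 points.

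**Figure D4:**
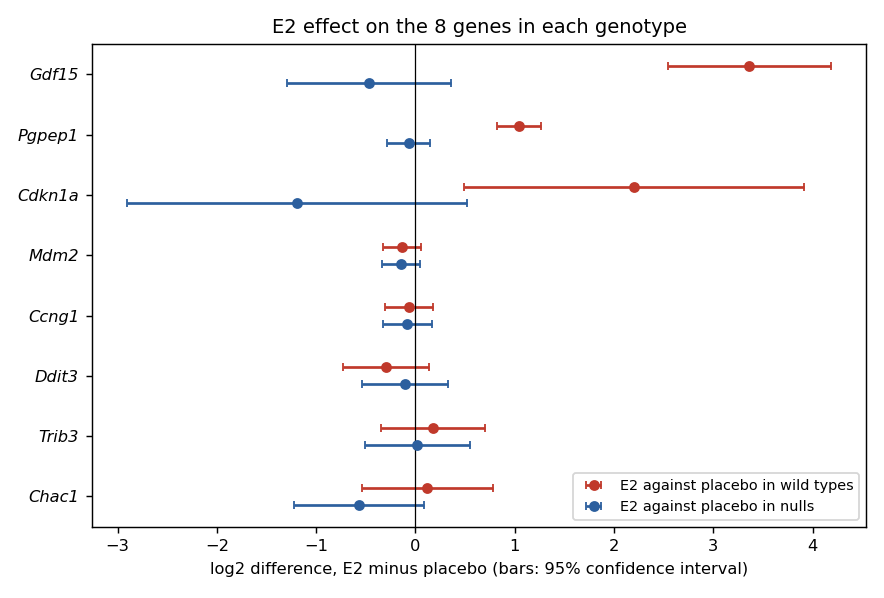
Difference between E2 and placebo for the 8 genes (log2, horizontal axis) in wild types (red) and nulls (blue), with 95% confidence intervals as bars. Gdf15 (3.36) and Pgpep1 (1.04) have wild-type values that were known when the genes were chosen, and 5 of the 6 pathway genes have wild-type intervals that include 0, Cdkn1a being the exception before adjustment.

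Wider lists of the same pathways held no called gene. With E2, 0.318% of all genes were called in wild types and 0.00455% in nulls. Beside these shares 0 called is near the background for each list, and nothing is read from it. Of 30 listed p53 targets 28 were tested, 25 beside the members, and 0 were called with E2 in wild types or in nulls. The 25 others lay above 0 in 12 and below 0 in 13 in wild types, with a median of -0.02 beside 0.00 over all genes. In nulls 9 lay above and 16 below 0, with a median of -0.05 beside -0.01. The 3 others with the smallest p in wild types were Ddit4, an inhibitor of mTORC1 signalling that both p53 and stress induce, Pidd1, a death-domain adaptor gene, and Perp, a membrane gene of cell junctions. Pidd1 differed by -0.38 ± 0.15 (limma adjusted p = 0.506) and Perp by 0.18 ± 0.08 (limma adjusted p = 0.554). In nulls the smallest p-values were those of Ddit4, the phosphatase gene Ppm1d (-0.27 ± 0.12, limma adjusted p = 0.820) and Bbc3, which encodes the apoptosis inducer PUMA (0.26 ± 0.14, limma adjusted p = 0.829).

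Ddit4, like Cdkn1a, varied widely between animals. Its level was 3.60, 4.82, 2.09, 2.20 and 2.22 in wild types with placebo and 5.16, 5.60, 4.92, 3.68 and 4.00 with E2. In nulls it was 6.11, 4.37, 5.29, 5.11 and 5.09 with placebo and 4.33, 2.95, 4.13, 3.69 and 4.67 with E2. Wild-type placebo animals 3, 4 and 5 were low at both genes, and animals 1 and 2 were higher at both. Ddit4 differed by 1.69 ± 0.51 with E2 in wild types (limma adjusted p = 0.336) and by -1.24 ± 0.51 in nulls (limma adjusted p = 0.818), and nulls under placebo stood 2.21 ± 0.51 above wild types (limma adjusted p = 0.135). None of these values passed the threshold. Gdf15 in the wild-type placebo animals was lowest in 2 and 3, an order of single animals from which nothing is read.

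Of 41 listed ATF4 and CHOP targets 37 were tested, 34 beside the members, and 0 were called in any of the 5 comparisons. Shares of all genes called ran from 0.00455% to 0.464% in these, so 0 is near the background. The 34 others lay above 0 in 17 and below 0 in 17 with E2 in wild types (median 0.00) and above 0 in 9 and below 0 in 25 in nulls (median -0.11 beside -0.01 over all genes). After Ddit4 the smallest p in wild types were those of Nupr1, a stress-induced chromatin protein gene, at -0.47 ± 0.15 (limma adjusted p = 0.372), and Gpt2, the mitochondrial alanine transaminase, at 0.28 ± 0.10 (limma adjusted p = 0.431). Gpt2 was higher in every wild-type E2 animal than in every wild-type placebo animal. The same held for every null placebo animal, with a difference from wild-type placebo of 0.42 ± 0.10 (limma adjusted p = 0.136). Neither difference passed the threshold, and how many of all genes separate in this way is not given here. In nulls Atf4 itself differed by -0.26 ± 0.11 (limma adjusted p = 0.818) and Cebpg, a C/EBP family partner of ATF4, by -0.26 ± 0.12 (limma adjusted p = 0.824).

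Chaperones and folding enzymes of the endoplasmic reticulum, which the unfolded protein response raises, lay below 0 with E2 in 18 of 19 genes in wild types and in 15 of 19 in nulls, with medians of -0.17 and -0.09 beside 0.00 and -0.01 over all genes, and 0 were called in either genotype. Targets of NRF2, the regulator of the oxidative stress response, were above 0 in 7 of 13 in wild types and 3 of 13 in nulls, with 0 called. With 0.318% of all genes called in wild types and 0.00455% in nulls, 0 called is near the background for both lists. All these lists were written with earlier results of these data known.

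**Figure D5:**
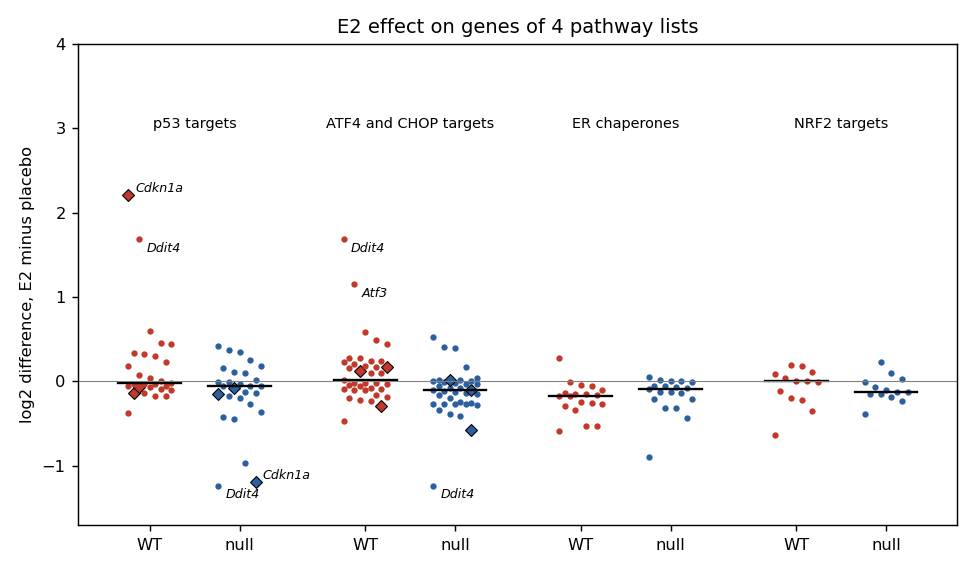
Difference between E2 and placebo (log2, vertical axis) of each tested gene on 4 pathway lists, in wild types (red) and nulls (blue), with a line at each list's median and diamonds for the 6 pathway genes. List medians lie between -0.17 and 0.02, and in wild types Cdkn1a (2.21), Ddit4 (1.69) and Atf3 (1.15) stand apart from their lists without passing the threshold.

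Among 11 genes that receive, process or regulate Gdf15, the receptor genes Gfral and Ret were well above background on no array. Furin and Mmp14, proteases that can cleave the precursor or the receptor, differed by 0.02 ± 0.13 and 0.03 ± 0.16 with E2 in wild types (limma adjusted p = 0.979 and 0.973). The regulators Trp53 (0.17 ± 0.22), Atf4 (-0.02 ± 0.11), Egr1 (0.08 ± 0.56), Xbp1 (-0.25 ± 0.15) and Nfe2l2 (-0.07 ± 0.10) were not called either, with limma adjusted p-values of 0.675 or more. Atf3, a stress-induced transcription factor that several of these pathways raise, had levels from -2.63 to -0.69 with placebo and from -1.40 to 0.37 with E2 in wild types, a difference of 1.15 ± 0.43 (unadjusted p = 0.0146, limma adjusted p = 0.472). Esr1 was the only gene of this list called in any comparison, and only between genotypes.

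The levels within groups gave no relation that passed its test. With each gene centred on its group mean over the 20 arrays, Gdf15 and Pgpep1 correlated at r = 0.308 (permutation p = 0.309, 0.541 adjusted over 7 relations) and rho = 0.292 (permutation p = 0.300, 0.597 adjusted). Without the 2 arrays farthest from the median of Gdf15 r was 0.107, and with slide also removed it was 0.352. With the p53 targets r was -0.192 for Cdkn1a, -0.344 for Mdm2 and 0.274 for Ccng1. With the stress targets it was 0.00189 for Ddit3, 0.416 for Trib3 and -0.199 for Chac1. None of the 7 relations passed, with permutation p-values adjusted over them of 0.541 to 0.994 for r and 0.597 to 0.760 for rho, and without the 2 farthest arrays r ran from -0.223 to 0.511. Pgpep1 against the 6 pathway genes, a family added after the first values were seen, gave its largest r with Cdkn1a, at -0.50 (permutation p = 0.0734, 0.429 adjusted over 6) and rho = -0.565 (permutation p = 0.0352, 0.211 adjusted).

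The 5 genes whose level followed that of Gdf15 most closely over all 20 arrays were on none of the p53 or stress lists. With so few of 21971 genes this is likely in any case, and nothing is read from it. The highest r were those of Dsc2, a desmosomal cadherin (0.931), Mmd2, of the PAQR membrane receptor family (0.916), Slc34a2, a phosphate transporter (0.905), the Ensembl transcript ENSMUST00000093911 (0.901) and a probe for a long intergenic RNA region of chromosome 7 (0.888). These values rest on the shared contrast between wild-type E2 livers and the rest. Slc34a2 was well above background in wild-type E2 livers alone. Pgpep1 ranked 28th of 21971 genes by this measure (0.833), Chac1 949th (0.437), Cdkn1a 3303rd (0.270), Trib3 10697th, Ccng1 16257th, Ddit3 19725th and Mdm2 19745th. With group means removed, the closest included Chst3 (0.804), D730003I15Rik (0.762), Flt3l (0.762) and Hes1 (0.761). Both are descriptions over arrays that share their scaling.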

How the data were processed

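Liver RNA from 20 mice was hybridised to 1-colour Agilent arrays. Per the file headers, Feature Extraction 10.10.1.1 gave each spot a processed intensity (background-subtracted) with probes placed on mm9. The authors also deposited a log2 table of 32526 probes, used as an alternative. It followed each array's scanner signal (correlation 0.9987 to 1 across probes, column medians 7.85), and the sources used here do not state its filter.

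Here, log2 intensity minus the array's 75th percentile over 59305 non-control spots was used. Non-uniform spots were dropped and spots of a probe averaged. Probes that the files call well above background in 4 or more arrays of any group were kept (30960 of 55681), and the brightest named each gene. limma 3.58.1 (R 4.3.3) fitted 4 group means over all 20 arrays (16 residual and 2.44 prior degrees of freedom, 2-sided). The fit was tested on simulated data. Correlations used 100000 permutations within groups.

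The members and lists were chosen with earlier results of these data known. Named genes were the members, called genes within 250 kb, the 3 list genes with smallest p, the 5 most alike genes, and regulators of Gdf15. Others are marked by their list. A few items that these rules would name are not reported here. Which animals shared a cage is not stated, and 5 arrays per group limit precision. The deviations of same-numbered animals of different groups correlated at -0.163 to 0.245 (median 0.0859 over 30 pairs). Differently numbered animals had a median of -0.0212 over 120 pairs. No pairing was used, since the labels do not say what a replicate number marks, and a replicate block is given as an alternative. Alternatives changed scaling, background, filter, probe choice, samples and blocks.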

Additional observations from a re-analysis of the deposited data

Results flagged for a closer look

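In 4 of 32 groups of 5 animals, a group per gene, the highest or lowest animal stood apart from the others by more than Dixon's 95% limit on its gap, and chance alone gives about 1 in 20 such groups. Pgpep1 in null placebo animal 3 was at 1.64, with the nearest animal of that group at 2.08. Ccng1 in null placebo animal 1 was at 1.67, with the nearest at 1.14. Ddit3 in wild-type placebo animal 2 was at -0.078, with the nearest at -0.56. Trib3 in null E2 animal 1 was at 0.83, with the nearest at 1.43. These are 4 different genes and 4 different animals.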

How the results depend on the processing

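For Gdf15 and Pgpep1, 0 of 196 values of the comparisons that hold wild-type E2 arrays changed sign under the alternatives. The genes were chosen on these responses and the alternatives share most of their arrays, so this count is a description and no support. The E2 difference of Gdf15 in wild types ran from 3.03 to 3.64. For Pgpep1 scaling on the median gave 0.82 in wild types, and animals numbered 750 or above gave 1.29 for the difference between the E2 effects. Median scaling moved the median of all genes by -0.22 (E2 in wild types), -0.12 (E2 in nulls), -0.10 (difference between the E2 effects) and 0.11 (genotypes under E2). Of the 1116 other values of members 60 changed sign, 0 of them past the threshold, so these are not counted as reversals. The count of pathway genes called stayed at 0 except for Chac1 between genotypes under E2. There it was 1 with normexp background together with quantile scaling, and 1 without null placebo animal 1 (range 0 to 1 over arrays left out). No correlation of Gdf15 with another member passed under any alternative, and r changed sign in 5 of 21 such values.

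Counts of all genes called moved more. Median scaling gave 32, 0, 18, 7 and 39 genes for E2 in wild types, E2 in nulls, the difference between the effects, and genotypes under placebo and under E2. Animals numbered 750 or above gave 41, 0, 10, 2 and 35. Fits of only the 2 groups compared gave 46 for E2 in wild types, 0 for E2 in nulls and 8 for genotypes under placebo. Without a filter on dim probes E2 in nulls gave 0 and genotypes under placebo 8, the mean of probes gave 0 for E2 in nulls, and slide as a fixed block gave 2 and 9. With the replicate number as a block, E2 in wild types gave 90, E2 in nulls 0 and the difference between the effects 35. That block gave 13 for genotypes under placebo and 92 under E2, and no pathway gene was called. Leaving out each array in turn gave 50 to 87 genes for E2 in wild types, 0 to 2 for E2 in nulls, 31 to 40 for the difference, 6 to 46 for genotypes under placebo and 67 to 120 under E2. The cause of these moves was not tested. With E2 in wild types the difference of Gdf15 was 3.03 to 3.64 and that of Pgpep1 0.99 to 1.11 over the arrays left out. Signal over background limited the further Cdkn1a probes, which were not well above background on every array, and no Cdkn1a level or difference given here rests on them. The counts over the alternatives include the mean of a gene's probes, which takes in the dimmer Cdkn1a probe.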
